A study of Mus musculus with 91 samples.

Results

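The comparison described here is that of DKO-AG-haESCs with WT-AG-haESCs by CAS-seq, a small RNA sequencing method that removes adapter dimers with Cas9. Its members are the 6 libraries whose titles name one of these lines, 3 of the line labelled O48 and 3 of the wild-type line, out of 91 libraries in the series. Every mature miRNA of the count table was examined, with weight on those outside the *Dlk1-Dio3* locus. Androgenetic haploid embryonic stem cells (AG-haESCs) carry only the genome of a sperm and can replace sperm when injected into an oocyte. The study made its later miRNA deletions in O48 according to its methods and in DKO-AG-haESCs according to its results. O48 is therefore taken to be the DKO line, in which both the *H19*-DMR and the *IG*-DMR are deleted. These are the differentially methylated regions of the *Igf2-H19* and *Dlk1-Dio3* imprinted domains. The name DKO here has nothing to do with the *Dnmt* genes. Both lines are labelled C57BL/6 and were grown with serum, LIF and 2i (inhibitors of Mek and Gsk3). In this medium the paternal methylation of both regions is known to be lost. It was not measured in these libraries. There is 1 line per genotype, hence the deletions and any other difference between the lines cannot be told apart. Nothing in the labels says that the 3 libraries of a line came from separate cultures, so the p-values measure the spread between these libraries, which may be technical. In bulk RNA, fewer cells of a type and less RNA per cell cannot be told apart either.

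A miRNA is cut from a hairpin as a short RNA of the 5′ (5p) or 3′ (3p) arm and finds its targets mainly through its seed, bases 2 to 8. Mouse ES cells are known for a few very abundant miRNA clusters, above all miR-290-295 of naive cells, while miR-302-367 belongs to the primed epiblast. let-7 belongs to differentiated cells, and its maturation is blocked in ES cells by Lin28. The many miRNAs of *Dlk1-Dio3* are made from the chromosome whose *IG*-DMR is unmethylated, normally the maternal one. They lie largely in the non-coding RNAs *Meg3*, *Rian* and *Mirg*, in the transcript antisense to *Rtl1*, and in the stretches between these.

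The sequences below are those of the miRNAs on which the results turn, from RefSeq on GRCm38.p6, with the seed in capitals. The first 3 were the most abundant *Dlk1-Dio3* miRNAs of WT cells, and miR-1247-5p is the member that did not follow them.
miR-127-3p: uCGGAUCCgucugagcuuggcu
miR-541-5p: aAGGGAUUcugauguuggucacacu
miR-409-3p: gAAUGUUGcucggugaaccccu
miR-1247-5p: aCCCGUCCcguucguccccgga
The next share the let-7 seed, and are shown because 5 of them were higher in DKO cells while let-7e-5p, with the same seed, was not called.
let-7a-5p: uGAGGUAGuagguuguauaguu
let-7f-5p: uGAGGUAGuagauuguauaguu
let-7g-5p: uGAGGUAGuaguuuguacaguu
let-7i-5p: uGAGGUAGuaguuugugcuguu
miR-98-5p: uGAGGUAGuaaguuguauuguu
let-7e-5p: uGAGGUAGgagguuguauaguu
The following 4 share another seed, that of the ES cell and epiblast clusters, and moved in opposite directions.
miR-302b-3p: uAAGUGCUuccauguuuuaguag
miR-302d-3p: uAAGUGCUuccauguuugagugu
miR-294-3p: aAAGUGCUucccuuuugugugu
miR-295-3p: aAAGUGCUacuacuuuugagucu
The miR-200 family has 2 seeds that differ in a single base.
miR-200b-3p: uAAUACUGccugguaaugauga
miR-429-3p: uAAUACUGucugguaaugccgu
miR-200c-3p: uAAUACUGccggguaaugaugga
miR-200a-3p: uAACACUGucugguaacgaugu
The last set comprises the pair from the *Hox* clusters with 1 seed, followed by the miRNAs with the clearest changes that belong to no family above.
miR-10a-5p: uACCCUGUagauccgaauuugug
miR-10b-5p: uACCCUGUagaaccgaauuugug
miR-615-3p: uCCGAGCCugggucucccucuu
miR-192-5p: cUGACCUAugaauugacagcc
miR-34a-5p: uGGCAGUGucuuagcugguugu
miR-351-5p: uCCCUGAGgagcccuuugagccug
miR-205-5p: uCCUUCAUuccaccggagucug

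The libraries held 3813865 to 6102806 counts and 711 to 813 mature miRNAs with at least 1 count. Of the 1504 entries of the table, 1074 had a count in the 6 libraries and 648 passed the filter on low counts, 83 of them from *Dlk1-Dio3* and 565 from elsewhere. WT libraries resembled each other more closely (Pearson r of log2 CPM across miRNAs 0.969 to 0.972) than DKO libraries did (0.934 to 0.954), and r between the groups was 0.860 to 0.877. DKO replicate 2 stood apart from the other DKO libraries: the chi-square of its counts per degree of freedom was 364 against replicate 1 and 253 against replicate 3, and 37.5 between these. In it, miR-142a-5p, a blood miRNA, measured 36.2 normalized CPM, against 804 and 930.3 in the other DKO libraries and 751 to 776 in WT. The results are therefore also given without that library. The ES cell markers of the miR-290-295 cluster took 29.97, 29.1 and 29.6 percent of the counts in WT and 33.1, 40.2 and 35.03 percent in DKO libraries (exact two-sided permutation test, p = 0.1). Mesenchymal markers, which are abundant in fibroblasts, took 0.209 to 0.220 percent in WT and 0.165 to 0.224 percent in DKO libraries. One of them, miR-214-3p, had 3 counts in 1 WT library and none in the other 5, while other members were detected in both lines. Of the 7 tested, 4 had positive and 3 negative log2 fold changes. Among them, miR-145a-3p was 1.58-fold higher and miR-199a-3p 1.75-fold lower in DKO cells.

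A miRNA was called when its absolute log2 fold change exceeded 0.5 and its adjusted p, from edgeR's quasi-likelihood test with Benjamini-Hochberg adjustment over the 648 miRNAs, was under 0.05. Values per library are given as normalized CPM, counts scaled to a common library total, with each total multiplied by its TMM factor, in the order of the replicates. The error of a log2 fold change is its SE, with n = 3 libraries per group, and adjusted p-values are from the same edgeR test. By this rule, 149 miRNAs (23.0%) were called, 56 (8.64%) higher and 93 (14.4%) lower in DKO cells. In *Dlk1-Dio3*, 70 of 83 (84.3%) were lower in DKO cells and none was higher, and outside it 56 of 565 (9.91%) were higher and 23 (4.07%) lower. With the unadjusted p in place of the adjusted one, 29.9% were called, 12.2% higher and 17.7% lower. In *Dlk1-Dio3* 78 of 83 (94.0%) were then lower and none was higher. Outside it 116 (20.5%) were called, 79 (14.0%) higher and 37 (6.55%) lower. The libraries of the groups did not overlap for 280 miRNAs (43.2%), of which 200, or 35.4% of those tested there, lay outside the locus. Thus 79 of the 149 calls, 14.0% of the miRNAs tested outside the locus, were of miRNAs that lie elsewhere in the genome.

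**Figure D1:**
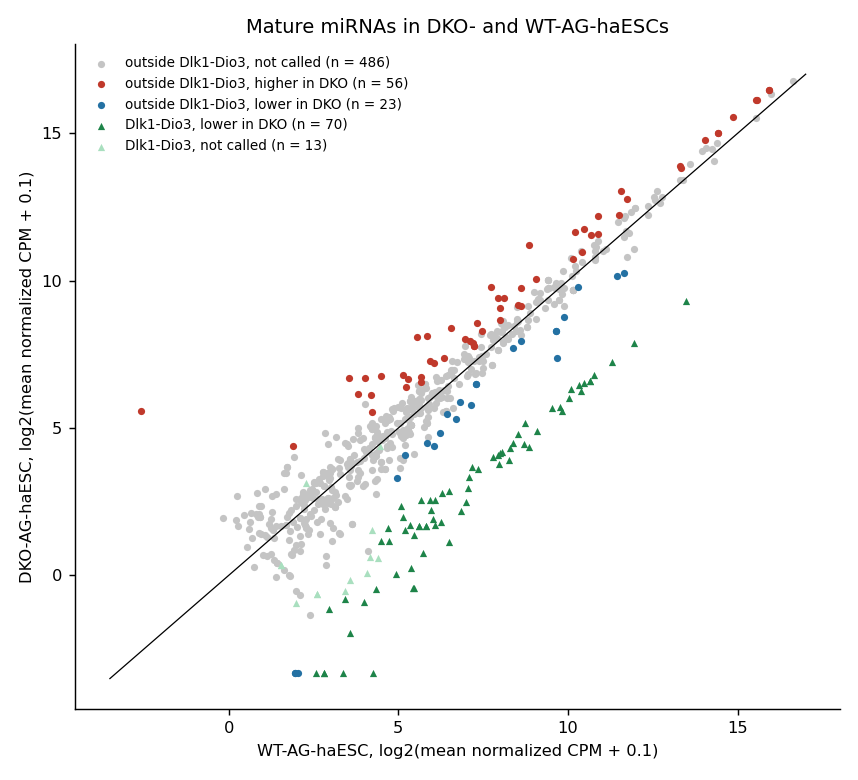
Mean level of each tested miRNA in the 3 WT libraries (x axis) and the 3 DKO libraries (y axis), as log2 of the mean normalized CPM + 0.1, with the line of equality. *Dlk1-Dio3* miRNAs (triangles) form a band parallel to the line and far below it, while the 56 higher and 23 lower miRNAs outside the locus (circles) lie above and below the line over most of the range of abundance.

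The 70 called *Dlk1-Dio3* miRNAs fell, and the medians were similar in most segments of the cluster. Over the 83 tested the median log2 fold change was -3.97, a 15.7-fold difference, with quartiles of -4.31 and -3.67, against a median of 0.17 over the 565 miRNAs outside the locus. The most abundant, miR-127-3p at chr12:109592888-109592909 (plus strand), from the transcript antisense to *Rtl1*, measured 11208, 11343 and 11601 normalized CPM in WT and 616, 649 and 625 in DKO libraries (log2 fold change -4.17 ± 0.084, adjusted p = 7.79e-08). miR-541-5p at chr12:109742422-109742446 (plus strand), from *Mirg*, measured 3964, 3756 and 4083 normalized CPM in WT and 241, 250.3 and 213 in DKO libraries (log2 fold change -4.07 ± 0.12, adjusted p = 5.28e-07). miR-409-3p, from the same RNA, measured 2529, 2445 and 2561 normalized CPM in WT and 115, 161 and 179 in DKO libraries (log2 fold change -4.05 ± 0.19, adjusted p = 2.65e-06). For each of the 3, the WT libraries lay within a narrow range and every DKO library was far below them. The locus as a whole took 4.55, 4.50 and 4.66 percent of the counts in WT and 0.220, 0.239 and 0.230 percent in DKO libraries, so it was reduced and not absent (exact two-sided permutation test, p = 0.1, the smallest that 3 against 3 libraries can give).

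Divided by transcript, the median log2 fold change was -4.06 over the 4 miRNAs of *Meg3*, -3.96 over the 8 between *Meg3* and *Rtl1*, -4.06 over the 12 antisense to *Rtl1*, -3.88 over the 32 between *Rian* and *Mirg* and -4.03 over the 21 of *Mirg*. The 4 miRNAs within *Rian* had a median of -6.20, which rests on 2 members, miR-370-5p and miR-1188-5p, without a count in any DKO library. Of the tested members, 5 were without a count in DKO cells. miR-370-5p had 273 counts over the 3 WT libraries and was at least 92.9-fold lower, against a limit of 3 counts over the DKO group. In the same way, miR-376c-3p was at least 53.4-fold lower and miR-1188-5p at least 28.2-fold lower, and miR-337-3p at least 35.4-fold, its reads being those of the antisense entry miR-3544-5p too. With these members set to their bounds, the median over the locus was the same, -3.97.

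The exceptions lay at the far end. miR-1247-5p, at chr12:110278094-110278115 (minus strand) beside *Dio3* and 737 kb from the start of *Meg3*, measured 19.6, 19.98 and 26.1 normalized CPM in WT and 26.3, 11.3 and 24.4 in DKO libraries (log2 fold change -0.09 ± 0.40, adjusted p = 0.892), and the groups overlapped. Its other arm, miR-1247-3p, measured 3.37, 5.53 and 5.46 normalized CPM in WT and 13.99, 6.27 and 5.79 in DKO libraries (log2 fold change 0.86 ± 0.64, adjusted p = 0.400). The DKO libraries of miR-1247-3p were all above WT, but at 3.37 to 13.99 normalized CPM. Both arms lie on the minus strand, opposite to miR-127. The other 11 members that were not called had log2 fold changes between -4.06 and -1.22 at WT means of 2.81 to 21.1 normalized CPM. Among them, only the entries miR-299a-5p and miR-299b-5p, which hold the same reads, overlapped between the groups.

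**Figure D2:**
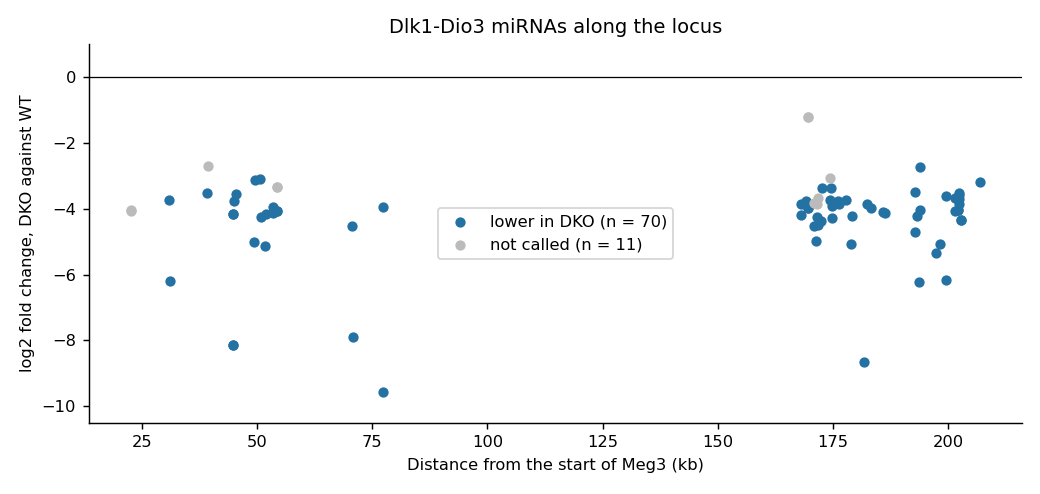
Log2 fold change of 81 *Dlk1-Dio3* miRNAs (y axis) against the distance of the mature sequence from the start of *Meg3* in kb (x axis). The values form a flat band near -4 from *Meg3* to *Mirg*, with the entries of miR-299 above it at -1.22. The 5 lowest points, at -7.9 and below, are fitted values of miRNAs without a count in DKO cells, and both arms of miR-1247, 737 kb away, are not drawn.

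Outside the locus, the number of calls in each direction depended on how libraries were scaled. With the factors computed by TMM over all miRNAs, 56 were higher and 23 lower (70.9% of the calls higher), with RLE factors 54 and 23 (70.1%), with TMM factors computed without the *Dlk1-Dio3* miRNAs 36 and 33 (52.2%), and with library totals alone 28 and 55 (33.7%). The median log2 fold change of the 565 miRNAs moved accordingly, from 0.17 to 0.15, 0.02 and -0.14. Of these, 28 of the higher and all 23 of the lower miRNAs were called in the same direction under all 4 scalings. The other scalings moved the log2 fold changes downward, so they put only the higher calls to a test. Of the calls, 21 higher and 8 lower held under every one of the 16 settings run, which also comprise other filters, DESeq2, the replicate block and the omission of each library. The higher ones are let-7a-5p, let-7d-5p, let-7d-3p, let-7f-5p, let-7g-5p, let-7i-5p, miR-98-5p, miR-34a-5p, miR-351-5p, miR-450a-5p, miR-450b-5p, miR-450b-3p, miR-503-5p, miR-429-3p, miR-205-5p, miR-205-3p, miR-23b-5p, miR-92a-2-5p, miR-423-5p, miR-674-3p and miR-124b-3p. The lower ones are miR-10b-5p, miR-615-3p, miR-192-5p, miR-302b-3p, miR-302d-3p, miR-29a-3p, miR-874-3p and miR-6539.

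**Figure D3:**
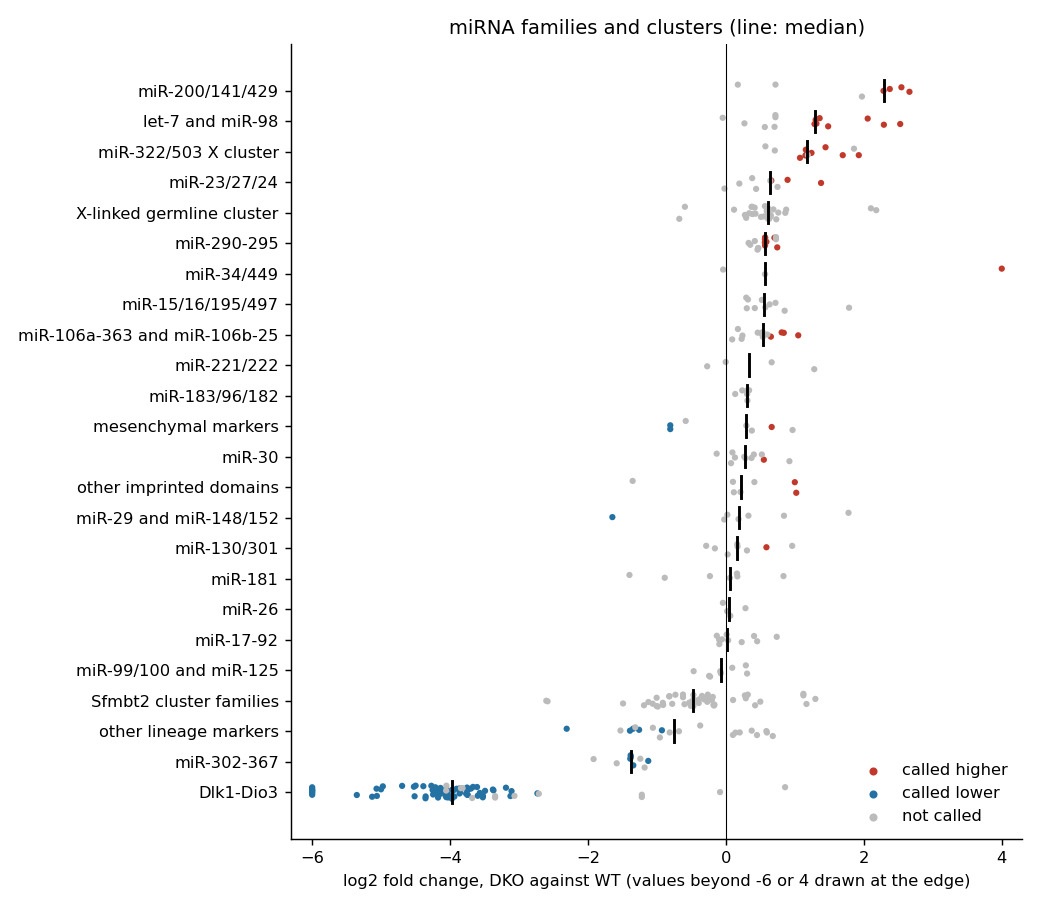
Log2 fold change of every tested member of 24 families, clusters and marker lists (points, red for called higher, blue for called lower, grey for not called), with the median of each list as a black line. The lists run from *Dlk1-Dio3* at the bottom and miR-302-367, with medians of -3.97 and -1.38, to the let-7 and miR-200 families at the top, with medians of 1.29 and 2.29.

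Most of the abundant let-7 miRNAs were higher in DKO cells. Of its 14 tested members, miR-98 included, 8 were called higher and none lower, with a median log2 fold change of 1.29, against 9.91% called higher over all miRNAs outside *Dlk1-Dio3*. let-7f-5p, the most abundant member, measured 2989, 3032 and 2996 normalized CPM in WT and 9591, 6468 and 9135 in DKO libraries (log2 fold change 1.48 ± 0.15, adjusted p = 2.42e-04). let-7g-5p measured 1937, 1840.2 and 1879.6 normalized CPM in WT and 5052, 3847 and 5148 in DKO libraries (log2 fold change 1.31 ± 0.13, adjusted p = 2.03e-04). let-7i-5p measured 232, 216 and 183.8 normalized CPM in WT and 946, 727 and 956 in DKO libraries (log2 fold change 2.06 ± 0.17, adjusted p = 6.39e-05). In these 3 every DKO library lay above every WT library, with replicate 2 the lowest of the DKO libraries. The genes are scattered: let-7d comes from chromosome 13, with copies of let-7a and let-7f, let-7g from chromosome 9, let-7i from chromosome 10 and miR-98, which measured 63.5, 51.7 and 56.0 normalized CPM in WT and 313, 186 and 339 in DKO libraries (log2 fold change 2.29 ± 0.26, adjusted p = 4.19e-04), from the X chromosome.

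Not all members with the seed GAGGUAG rose. let-7e-5p from chromosome 17, which sits in a cluster with miR-99b and miR-125a, measured 575, 530.1 and 563 normalized CPM in WT and 714, 675 and 620.0 in DKO libraries (log2 fold change 0.27 ± 0.12, adjusted p = 0.145). Its neighbours were not called either: miR-99b-5p had a log2 fold change of -0.23 and miR-125a-5p of -0.07. let-7c-5p measured 171, 158 and 171 normalized CPM in WT and 237, 69.7 and 178 in DKO libraries (log2 fold change -0.05 ± 0.39, adjusted p = 0.937). let-7b-5p measured 12.9, 5.71 and 4.75 normalized CPM in WT and 24.1, 3.40 and 10.6 in DKO libraries (log2 fold change 0.70 ± 0.78, adjusted p = 0.596). For both, the groups overlapped. Summed over the 9 miRNAs with this seed, the level was 7617, 7609.5 and 7519 normalized CPM in WT and 21284, 15615 and 20732 in DKO libraries, a ratio of 2.53 (exact two-sided permutation test, p = 0.1). All 8 calls held under the 4 scalings and without DKO replicate 2, and miR-98-3p, at 2.78 to 39.6 normalized CPM, lost its call without any one of 4 other libraries and with the replicate block.

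The pluripotency clusters moved in opposite directions, the second only by the TMM and RLE scalings for most of its calls. All 9 tested arms of miR-302-367, a cluster on chromosome 3, had negative log2 fold changes with a median of -1.38, and 5 were called lower, against 4.07% over all miRNAs outside *Dlk1-Dio3*. miR-302b-3p, the most abundant arm, measured 3281, 3262 and 3084 normalized CPM in WT and 1041, 1696 and 967 in DKO libraries (log2 fold change -1.38 ± 0.21, adjusted p = 0.00242). miR-302d-3p measured 139, 137 and 149.6 normalized CPM in WT and 49.7, 70.2 and 43.2 in DKO libraries (log2 fold change -1.38 ± 0.23, adjusted p = 0.00345). miR-302a-5p measured 922, 986 and 914 normalized CPM in WT and 327, 639 and 327 in DKO libraries (log2 fold change -1.13 ± 0.27, adjusted p = 0.0178). The groups did not overlap in any of these 3, and DKO replicate 2 was nearest to WT. Without it the cluster had 7 calls and a median of -1.72, while it had 3 calls without WT replicate 1 or 2 and 4 without any one of the other 3 libraries. The call of miR-302a-5p was lost without any one of the 5 other libraries, with adjusted p of 0.0617 to 0.0701 (edgeR). The share of the cluster in the counts was 0.577, 0.584 and 0.542 percent in WT and 0.150, 0.271 and 0.143 percent in DKO libraries (exact two-sided permutation test, p = 0.1).

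All 18 tested entries of miR-290-295, a cluster on chromosome 7, had positive log2 fold changes with a median of 0.57, and 10 were called higher, against 9.91% over all miRNAs outside *Dlk1-Dio3*. miR-295-3p measured 48162, 48476 and 46944 normalized CPM in WT and 68339, 76505 and 67636 in DKO libraries (log2 fold change 0.57 ± 0.067, adjusted p = 5.44e-04). miR-293-3p measured 50628, 45013 and 49422 normalized CPM in WT and 66545, 74193 and 73760.4 in DKO libraries (log2 fold change 0.56 ± 0.073, adjusted p = 9.41e-04). The groups did not overlap, but the differences are small, and their call depended on the scaling and on 1 library. With TMM factors computed without *Dlk1-Dio3* 2 entries were called and the median was 0.42, with library totals none was called and the median was 0.26, and without DKO replicate 2 there were 3 calls and a median of 0.45. The sign stayed positive in each case. Because 4 pairs of entries of this cluster hold the same reads, 3 of them on opposite strands of 1 place, such as miR-292a-5p and miR-292b-3p, the 10 calls are of 8 sets of reads.

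With their common seed AAGUGCU, miR-302b-3p, miR-302d-3p, miR-291a-3p, miR-294-3p and miR-295-3p can be added. The sum was 53609, 53954 and 52178 normalized CPM in WT and 71699.8, 81722 and 71510.3 in DKO libraries, a ratio of 1.41, and it follows miR-295-3p, which holds most of it. miR-302a-3p, which was not matched to a mature sequence, and miR-302c-3p, whose sequence starts 1 base later, are not in this sum.

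Several miRNAs of the *Hox* clusters were lower, as were the endoderm miRNAs miR-192-5p and miR-194-5p. Of other endoderm miRNAs, miR-375-3p was 2.89-fold lower and miR-122-5p 1.51-fold higher, and neither was called. Of the 20 tested markers of other lineages, 5 were called lower and none higher, against 4.07% called lower over all miRNAs outside *Dlk1-Dio3*. Their log2 fold changes were negative for 12 and positive for 8. The median log2 fold change was -0.75, or -0.41 without DKO replicate 2 and -0.32 without WT replicate 3, and 3 were called without WT replicate 1 or 2. miR-10b-5p at chr2:74726074-74726096 (plus strand), in the *Hoxd* cluster, measured 808, 789.7 and 855 normalized CPM in WT and 169.6, 128 and 197 in DKO libraries (log2 fold change -2.31 ± 0.18, adjusted p = 5.46e-05), and was 4.96-fold lower in DKO cells. miR-10a-5p at chr11:96317186-96317208 (plus strand), in *Hoxb*, measured 111, 107 and 94.7 normalized CPM in WT and 40.7, 54.3 and 23.9 in DKO libraries (log2 fold change -1.39 ± 0.31, adjusted p = 0.0141). miR-615-3p at chr15:103014969-103014990 (plus strand), in *Hoxc*, measured 805, 813 and 775 normalized CPM in WT and 310.3, 382 and 248 in DKO libraries (log2 fold change -1.35 ± 0.17, adjusted p = 9.08e-04). In all 3 the groups were apart, but the call of miR-10a-5p was lost without WT replicate 1 or 2 (adjusted p of 0.0617 and 0.0573, edgeR). miR-10b-5p had the largest fall of the called miRNAs outside *Dlk1-Dio3* that had a count in DKO cells. A further *Hox* miRNA did not share it: miR-196a-5p measured 329.9, 396 and 372 normalized CPM in WT and 383, 378 and 417 in DKO libraries (log2 fold change 0.10 ± 0.13, adjusted p = 0.666).

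miR-192-5p at chr19:6264857-6264877 (plus strand), known from liver and intestine, measured 2606, 2871 and 2805 normalized CPM in WT and 1106, 1187 and 1167 in DKO libraries (log2 fold change -1.26 ± 0.10, adjusted p = 4.48e-05). The cluster partner miR-194-5p measured 126.2, 109 and 101.2 normalized CPM in WT and 46.4, 60.3 and 70.0 in DKO libraries (log2 fold change -0.93 ± 0.22, adjusted p = 0.0183). Its call was lost without any one WT library and with the replicate block (adjusted p of 0.0509 to 0.094, edgeR). The fall of miR-192-5p was 2.39-fold, and the 3 DKO libraries lay close to each other and apart from WT. miR-211-5p, from an intron of the melanocyte gene *Trpm1*, measured 809, 775 and 823 normalized CPM in WT and 408, 157 and 373 in DKO libraries (log2 fold change -1.36 ± 0.33, adjusted p = 0.0183), with DKO replicate 2 the lowest, and its call was lost without any one WT library (adjusted p of 0.0618 to 0.0712). Other calls were miR-29a-3p, of a family with *Dnmt3* targets, at 26.98, 35.1 and 30.4 normalized CPM in WT and 9.39, 10.9 and 9.17 in DKO libraries (log2 fold change -1.65 ± 0.32, adjusted p = 0.00696), and miR-874-3p at 58.3, 64.1 and 77.9 normalized CPM in WT and 21.9, 23.8 and 16.6 in DKO libraries (log2 fold change -1.68 ± 0.26, adjusted p = 0.00259). The neural miRNA miR-129-2-3p and its antisense entry miR-129b-5p had 56 counts over the WT libraries and none in DKO cells, which makes them at least 19.1-fold lower, and miR-3099-3p, with 59 counts and none, at least 20.1-fold lower. These 3 were called in 10 of the 15 settings that gave them a value.

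The miR-200 cluster of chromosome 4, which keeps epithelial cells epithelial by repressing *Zeb1* and *Zeb2*, was higher in DKO cells with a large spread. miR-200b-3p measured 502, 428 and 445 normalized CPM in WT and 3206, 671 and 3264 in DKO libraries (log2 fold change 2.38 ± 0.53, adjusted p = 0.0139). miR-200a-3p measured 60.9, 26.2 and 53.7 normalized CPM in WT and 355, 72.0 and 394 in DKO libraries (log2 fold change 2.54 ± 0.63, adjusted p = 0.0213). miR-429-3p measured 20.03, 29.3 and 17.3 normalized CPM in WT and 143, 49.1 and 134 in DKO libraries (log2 fold change 2.29 ± 0.44, adjusted p = 0.00730). DKO replicates 1 and 3 were several times above WT while replicate 2 lay just above it, and no library of one group overlapped with the other. Without replicate 2 the log2 fold change of miR-200b-3p was 2.77 (adjusted p = 4.38e-08, edgeR), whereas its call was lost without any one of 4 other libraries (adjusted p of 0.0548 to 0.0737). That of miR-200a-3p was lost without any one of 5 libraries (adjusted p of 0.0629 to 0.0886, edgeR). The cluster of the same family on chromosome 6 was not called: miR-200c-3p, with the seed of miR-200b-3p, measured 140.4, 115 and 143.9 normalized CPM in WT and 146, 119.6 and 185 in DKO libraries (log2 fold change 0.17 ± 0.21, adjusted p = 0.643), and miR-141-3p had a log2 fold change of 0.72. Of the 7 tested members of both clusters, 4 were called higher, against 9.91% over all miRNAs outside *Dlk1-Dio3*, and the median was 2.29. There were 2 calls without WT replicate 1 or DKO replicate 1, 1 call without WT replicate 2 or 3, and 6 without DKO replicate 2. The epithelial miR-205-5p, from chromosome 1, measured 249, 242 and 243 normalized CPM in WT and 758, 421 and 865 in DKO libraries (log2 fold change 1.48 ± 0.26, adjusted p = 0.00443).

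**Figure D4:**
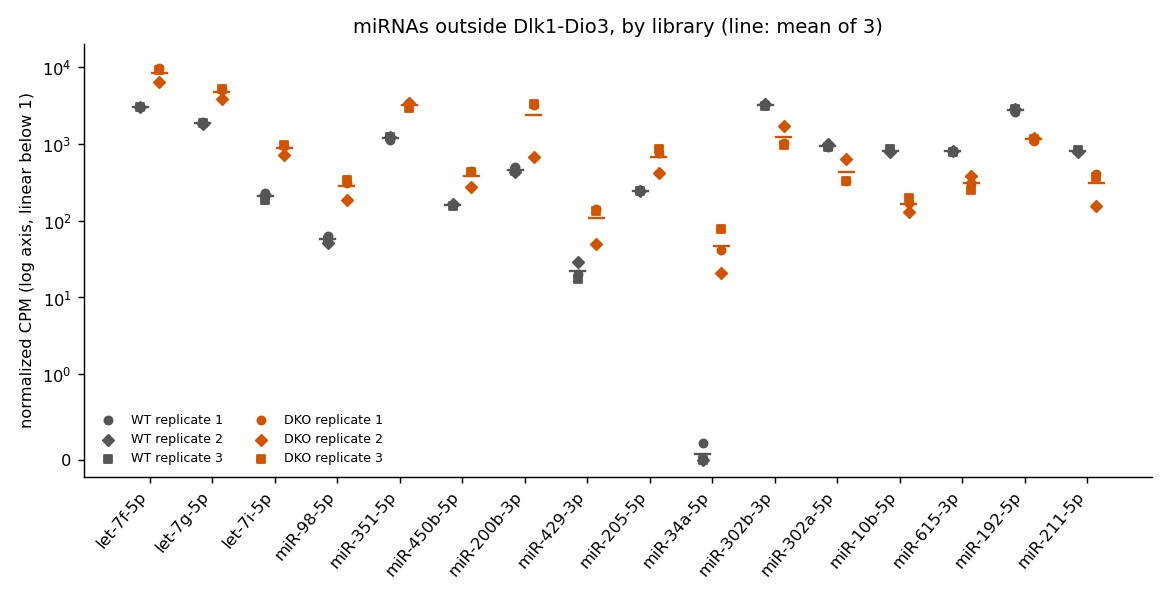
Normalized CPM (y axis, logarithmic and linear below 1) of 16 miRNAs outside *Dlk1-Dio3* in each WT library (grey) and DKO library (orange), with the replicate given by the symbol and the mean of 3 by a line. In each of the 16 the groups are apart, and DKO replicate 2 (diamonds) lies nearest to WT for the let-7, miR-200 and miR-302 members.

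miR-34a-5p, a target of p53 that represses cell cycle genes, was detected almost only in DKO cells. At chr4:150068473-150068494 (plus strand), it had 1 count in the 3 WT libraries together and 671 in the 3 DKO libraries, with 41.6, 21.1 and 78.9 normalized CPM in the latter. The ratio of the pooled levels was 658 with a 95% interval of 118 to 26010, exact for the counting error and covering that error only. Every DKO library was above every WT library, with an adjusted p of 2.87e-04 (edgeR). The other arm of the hairpin, miR-34a-3p, was too low to be tested, with 0 counts in the WT libraries and 8, 26 and 18 in the DKO libraries. Of the same family, miR-34c-5p measured 31.1, 29.4 and 23.7 normalized CPM in WT and 36.6, 14.3 and 31.1 in DKO libraries (log2 fold change -0.04 ± 0.39, adjusted p = 0.945), and the groups overlapped.

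Arms of an X-linked cluster with miR-322, miR-503, miR-351, miR-450 and miR-542 were higher in DKO cells. All 12 tested arms had positive log2 fold changes, 8 were called higher, against 9.91% over all miRNAs outside *Dlk1-Dio3*, and the median was 1.18. There were 5 calls without WT replicate 1 or 2, and 6 with the replicate block. miR-351-5p at chrX:53053315-53053338 (minus strand), its most abundant member, measured 1118, 1231 and 1214 normalized CPM in WT and 3419.9, 3366 and 2910.2 in DKO libraries (log2 fold change 1.44 ± 0.11, adjusted p = 3.95e-05). miR-450a-5p measured 395, 381 and 390.4 normalized CPM in WT and 976, 599 and 1016 in DKO libraries (log2 fold change 1.15 ± 0.21, adjusted p = 0.00485). miR-322-3p measured 255, 231 and 277 normalized CPM in WT and 426, 729.7 and 450.9 in DKO libraries (log2 fold change 1.07 ± 0.23, adjusted p = 0.0104). The groups did not overlap for these, with library totals alone 7 of the 8 were called, and miR-322-3p lost its call without WT replicate 1 or 2. miR-322-5p, which has the seed of miR-15 and miR-16, was near the limit of the test at 1.79 to 16.8 normalized CPM. The family of miR-15 and miR-16 itself, whose genes are autosomal, had no call among 10 tested members and a median of 0.55, and the seed sum was 1189, 1207 and 1171 normalized CPM in WT and 1512, 1372 and 1614 in DKO libraries.

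Over all 86 tested miRNAs of the X chromosome, of which the haploid cells have a single copy, 13 were called higher and none lower, against 9.91% and 4.07% over all miRNAs outside *Dlk1-Dio3*, and the median log2 fold change was 0.53. Without the cluster of miR-322 and the arms of miR-98, 72 remained with 3 calls, a smaller share than the 9.91% over all, and a median of 0.38, which was 0.24 with the TMM factors without *Dlk1-Dio3* and 0.08 with library totals. The 3 calls were miR-363-5p, miR-106a-5p and miR-92a-2-5p, all of the miR-106a-363 cluster, a paralogue of miR-17-92. miR-363-5p and miR-106a-5p lost their calls with library totals, with TMM factors without *Dlk1-Dio3* and without any library but DKO replicate 2. miR-92a-2-5p measured 128, 125 and 120.1 normalized CPM in WT and 287, 189 and 296 in DKO libraries (log2 fold change 1.05 ± 0.20, adjusted p = 0.00694). The germline miRNAs near *Fmr1* had no call among 31 and a median of 0.60: miR-741-3p measured 2784, 2941 and 2832 normalized CPM in WT and 2637, 6938 and 2597 in DKO libraries (log2 fold change 0.51 ± 0.37, adjusted p = 0.384), and without DKO replicate 2, which was the high library, the median of the 31 was -0.12. On chromosome 12 outside *Dlk1-Dio3*, none of 13 miRNAs was called and the median was -0.02.

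Other imprinted domains were examined because both deleted regions control imprinted genes. For *Igf2-H19*, the domain of the other deleted region, the table gives almost no reads: miR-675-5p and miR-675-3p, which are cut from the *H19* RNA, and miR-483-5p of *Igf2* had 0 counts in all 6 libraries. A count of 0 over the 3 libraries of a group allows up to 3 counts, so a difference at this level was not detectable. miR-483-3p measured 0, 2.32 and 4.99 normalized CPM in WT and 0.921, 0 and 3.14 in DKO libraries, and was not called (adjusted p = 0.771, edgeR). miR-335-3p, from an intron of the paternally expressed *Mest*, measured 3449, 3377 and 3444 normalized CPM in WT and 8179, 4026 and 8621 in DKO libraries (log2 fold change 1.02 ± 0.26, adjusted p = 0.0245). miR-335-5p measured 537, 497.3 and 559.7 normalized CPM in WT and 1262, 641 and 1282 in DKO libraries (log2 fold change 0.999 ± 0.26, adjusted p = 0.0251). DKO replicates 1 and 3 were well above WT and replicate 2 was close to it. Both calls were lost with library totals and without any one of the 5 other libraries (adjusted p of 0.0802 to 0.107, edgeR), and that of miR-335-5p with TMM factors without *Dlk1-Dio3* too. The miRNAs of the *Gnas* domain were not called: miR-298-5p measured 10315, 10129 and 10006 normalized CPM in WT and 11598, 10054 and 11323 in DKO libraries (log2 fold change 0.11 ± 0.081, adjusted p = 0.372), and miR-296-3p had a log2 fold change of 0.21. miR-184-3p, a neighbour of *Rasgrf1*, measured 50.4, 55.7 and 26.6 normalized CPM in WT and 6.63, 33.1 and 12.1 in DKO libraries (log2 fold change -1.35 ± 0.60, adjusted p = 0.152), with DKO replicate 2 inside the WT range. Without that library it was called lower (log2 fold change -2.29, adjusted p = 0.00431, edgeR). Of the paternally expressed *Sfmbt2* cluster and its near-identical copies, which reads cannot tell apart, 44 of 54 tested entries had negative values with a median of -0.47. There was 1 lower call among the 54, against 4.07% over all miRNAs outside *Dlk1-Dio3*. It was miR-669c-5p at 1200.3, 1271 and 1268 normalized CPM in WT and 860.3, 991 and 778 in DKO libraries (log2 fold change -0.51 ± 0.12, adjusted p = 0.0187). The number of calls in this list was 9 with TMM factors without *Dlk1-Dio3*, 17 with library totals and 20 without DKO replicate 2. Over all miRNAs outside *Dlk1-Dio3*, the lower calls rose too in these settings, from 23 to 33, 55 and 61. The list had 0 calls with the replicate block and without any one of the 5 other libraries, where miR-669c-5p had adjusted p of 0.0531 to 0.0867 (edgeR).

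Several of the most abundant miRNAs were not called. miR-183-5p and miR-182-5p, the most abundant of WT cells, had log2 fold changes of 0.13 ± 0.10 and 0.34 ± 0.12. miR-26a-5p measured 46764, 48599.6 and 47997 normalized CPM in WT and 48425, 44956 and 45678 in DKO libraries (log2 fold change -0.04 ± 0.059, adjusted p = 0.674). miR-191-5p measured 29053, 29708 and 30919 normalized CPM in WT and 54153, 39041 and 51494 in DKO libraries (log2 fold change 0.69 ± 0.12, adjusted p = 0.00456), a call that was lost with library totals. None of the tested members was called in the miR-17-92 cluster (10), the miR-15 and miR-16 family (10), miR-99, miR-100 and miR-125 (8), miR-181 (7), the cluster of miR-183 (6), miR-26 (4) and miR-221 with miR-222 (4). Single members of some of these were called in other settings. For example, miR-181a-5p, 2.64-fold lower, was called with DESeq2, with library totals, with TMM factors without *Dlk1-Dio3* and without DKO replicate 2. In the families of miR-30, miR-130 and miR-23 with miR-27 and miR-24, 1 of 11, 1 of 8 and 3 of 9 were called higher, with medians of 0.28, 0.17 and 0.64, against 9.91% over all miRNAs outside *Dlk1-Dio3*. The share is close to that for the first and second of these families, and for the last 1 call was left with library totals, with the replicate block and without WT replicate 1 or 3. Of the paralogues of miR-17-92, the clusters miR-106a-363 and miR-106b-25, 4 of 13 were called higher with a median of 0.53, and 1 with library totals, with TMM factors without *Dlk1-Dio3* and without any one library but DKO replicate 2. Of miR-29 with miR-148 and miR-152, 1 of 7 was called lower, against 4.07% over all miRNAs outside *Dlk1-Dio3*. Of miR-34 with miR-449, 1 of 3 was called higher, against 9.91%. Among the mesenchymal markers, miR-199a-3p, whose reads are those of miR-199b-3p too, was lower at 179, 149 and 140.3 normalized CPM in WT and 104, 60.9 and 103 in DKO libraries (log2 fold change -0.81 ± 0.25, adjusted p = 0.0496). That call was lost with the replicate block and without any library but DKO replicate 2 (adjusted p of 0.0573 to 0.189, edgeR). miR-145a-3p was higher (log2 fold change 0.66 ± 0.17, adjusted p = 0.0262), a call made in 7 of the 16 settings. The part of these markers in the other differences was not tested.

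**Figure D5:**
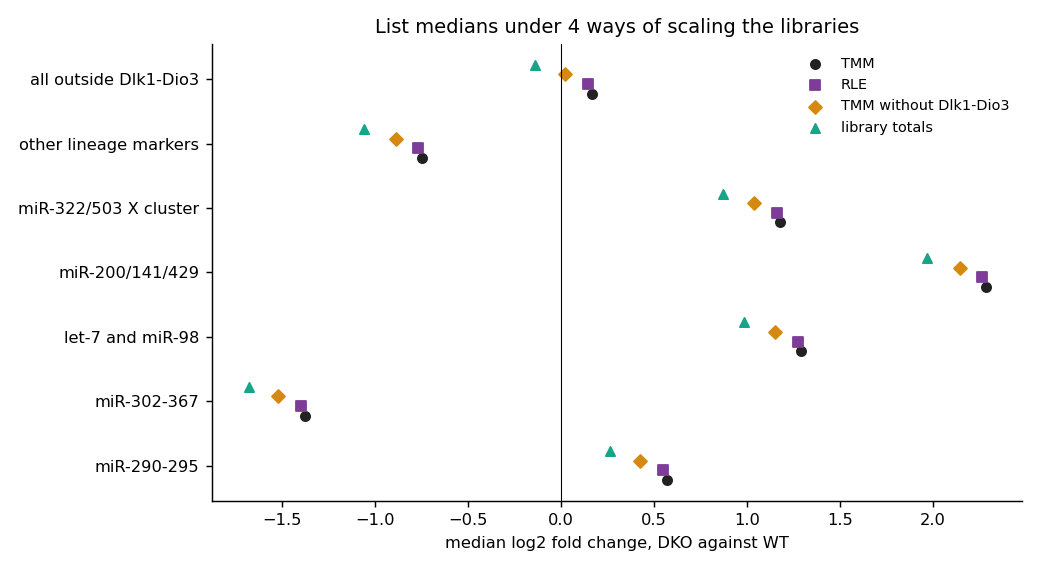
Median log2 fold change (x axis) of 6 lists and of all miRNAs outside *Dlk1-Dio3* under 4 ways of scaling the libraries (symbols). A change of scaling moves all log2 fold changes by nearly the same amount, so the order of the lists is the same under each. Every median shifts to the left from TMM to library totals, that of all miRNAs outside the locus from 0.17 to -0.14.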

How the data were processed

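Per the labels and methods, the authors trimmed reads with fastp 0.20.1, aligned them to GRCm38 with Bowtie 1.2.1.1 and assigned them to miRBase 21 mature miRNAs. The deposited values are read counts per miRNA and library, not normalized. Molecular identifiers are not described, so intervals cover counting error only. In the table, 70 entries in 33 sets hold the same reads (within 1% or 2 counts), among them 15 pairs on opposite strands of 1 place; list shares and seed sums count each set once. The line labelled 408 and the *Mir*-6KO libraries were left out. Entries were matched by name to genes (1495 of 1504) and RefSeq sequences (1275).

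Counts were tested with edgeR 4.0.16 (R 4.3.3; filterByExpr, count minimum 10, TMM factors) and, as an alternative, DESeq2 1.42.0. The members and lists were chosen with earlier results of these data known. The miRNAs named are the 10 most abundant in WT, the 12 largest called changes per direction outside *Dlk1-Dio3* whose libraries do not overlap and whose mean is at least 10 CPM, the 5 most abundant and the 3 least changed of *Dlk1-Dio3*, the tested imprinted miRNAs, up to 4 abundant members per list and the miRNA genes deleted in later lines; any other was chosen after its values were seen. In simulated data with 200 of 648 miRNAs changed, 39.5% of 2-fold and 67.0% of 4-fold changes were called, with 0 and 0.446% of the unchanged. Equal numbers were raised and lowered in the simulation, unlike the large fall of *Dlk1-Dio3* in these data. It therefore does not measure errors that come from the scaling. Libraries with the same number did not deviate together (r = -0.112, -0.0385 and -0.0242), so the numbers do not pair them.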

Additional observations from a re-analysis of the deposited data

How the results depend on the processing

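Leaving out 1 library gave 61 to 77 lower *Dlk1-Dio3* miRNAs (70 with all libraries), 34 to 69 higher (56) and 9 to 61 lower (23) miRNAs outside the locus, and 104 to 207 calls in all (149). Without WT replicate 1, 2 or 3 the lower ones outside the locus were 9, 9 and 11, and the higher ones 34, 35 and 38; without DKO replicate 2 they were 61 and 69. With TMM factors without *Dlk1-Dio3* 36 were higher, with library totals 28 were higher and 55 lower, and at the unadjusted p of the study 37 were lower. With 1 entry per set of entries holding the same reads, chosen after seeing the data, 51 were higher and 23 lower outside the locus and 67 lower in it. With the replicate number as a block, which shares only a number, 124 miRNAs were called, 42 higher and 17 lower outside and 65 lower inside the locus. The share differences between DKO and WT ranged, over the omission of each library, from -4.38 to -4.3 percentage points for *Dlk1-Dio3*, 4.49 to 8.05 for miR-290-295, 0.94 to 1.18 for let-7 and -0.421 to -0.357 for miR-302-367. No call of a named miRNA reversed under any of these settings. The depth limits the miRNAs of *Igf2-H19*, and the cause of the differences between settings was not tested.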

Other observations

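Arms of 1 hairpin gave a view of how far single values can be read. Of 163 hairpins outside *Dlk1-Dio3* with both arms tested, 134 had the same sign of change in both, and the log2 fold changes of the arms had a Pearson r of 0.608 across hairpins, which are not independent since both arms come from the same libraries. In *Dlk1-Dio3*, the sign was the same for 30 of 31 hairpins, miR-1247 being the other one, while r was 0.268. These values include fitted ones of arms without a count in DKO cells, such as miR-370-5p at -9.56. Hairpins whose entries hold the same reads were each counted, such as miR-337 with miR-3544 and miR-299a with miR-299b. Further miRNAs at the edge of detection were chosen after their values were seen. miR-196b-5p, of the *Hox* clusters, had 40 counts over the WT libraries (4, 34 and 2) and 1 over the DKO libraries. The pooled ratio was 40.8 (95% exact interval of the counting error 6.92 to 1652), but it rests mostly on WT replicate 2. miR-29b-3p had 45 counts over the WT libraries (17, 26 and 2) and none in DKO libraries, at least 15.3-fold lower. miR-1954 had none in WT and 69 in DKO libraries, at least 22.5-fold higher.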
